A study of Homo sapiens with 4 samples.

Results

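The cytochrome P450 genes outside the CYP1 family were described in HepG2 cells after inhibition of miR-191. HepG2 is an established line derived from a hepatocellular carcinoma. The genes were chosen by name: every array row with exactly 1 gene symbol of the form CYP, number, letter, number, without CYP1A1, CYP1A2, CYP1B1, the sterol demethylase gene CYP51A1 and pseudogenes marked by P. This gave 44 genes, each on 1 row, of 18417 genes with 1 symbol on the array. Another 7 rows that carry a P450 symbol of this form together with other symbols were left out, with mean levels between 3.35 and 5.60. Cultures were transfected by the lipid reagent Oligofectamine with anti-miR-191, an oligonucleotide that blocks the microRNA (2 arrays), or with a negative control anti-miR (2 arrays). Both treatments were carried out in 2 independent experiments, each giving 1 array per treatment and numbered here as in the array titles. Values are RMA intensities on the log2 scale, where 1 unit is a doubling of signal, and every change is anti-miR-191 minus control. Each array averages over the cells of a culture, so fewer cells of a kind and less RNA per cell cannot be told apart.

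Cytochrome P450 enzymes hold a heme group and insert 1 atom of oxygen into lipid-soluble substrates. In hepatocytes, members of families CYP2 and CYP3 clear drugs and other foreign compounds, members of CYP4 hydroxylate fatty acids, and CYP7A1, CYP7B1, CYP8B1, CYP27A1 and CYP39A1 take part in the conversion of cholesterol to bile acids. Other members make steroid hormones in the adrenal gland and gonads, or activate and degrade vitamin D and retinoic acid. Liver cancer lines such as HepG2 are known for low expression of many drug-metabolising P450 genes of adult liver.

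The labels name miR-191 without an arm, and the 5p arm, usually meant by that name, is shown with its seed, bases 2 to 8, in capitals, from RefSeq on GRCh38.p14 (chr3:49020672-49020694, minus strand).
hsa-miR-191-5p: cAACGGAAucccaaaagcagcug

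Of the 44 genes, 27 read above the dim rows, meaning that their mean level over the 4 arrays was at or above 3.41, the limit under which the lowest 33.3% of all array rows lie. With each array's own limit in its place, 27 genes were above it on all 4 arrays. The other 17 lay between 2.55 and 3.40 and were not tested. CYP26A1, a retinoic acid hydroxylase, was just inside the limit with a mean level of 3.56, and CYP19A1, the aromatase that makes oestrogens, was just outside with 3.40. With the limit at the median of all rows, 17 genes were above it. Among 14 markers of other cell types, mean levels ran from 2.52 to 9.56 after anti-miR-191 and from 2.62 to 9.24 in controls, so the limit is not a test of expression. Probe sets also differ in brightness, so the order of the genes by level is an order of readings and not of transcript amounts. All 8 hepatocyte markers checked, among them ALB and APOA1, read above the dim rows, and so did 12 of the 14 markers of other cell types.

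**Figure D1:**
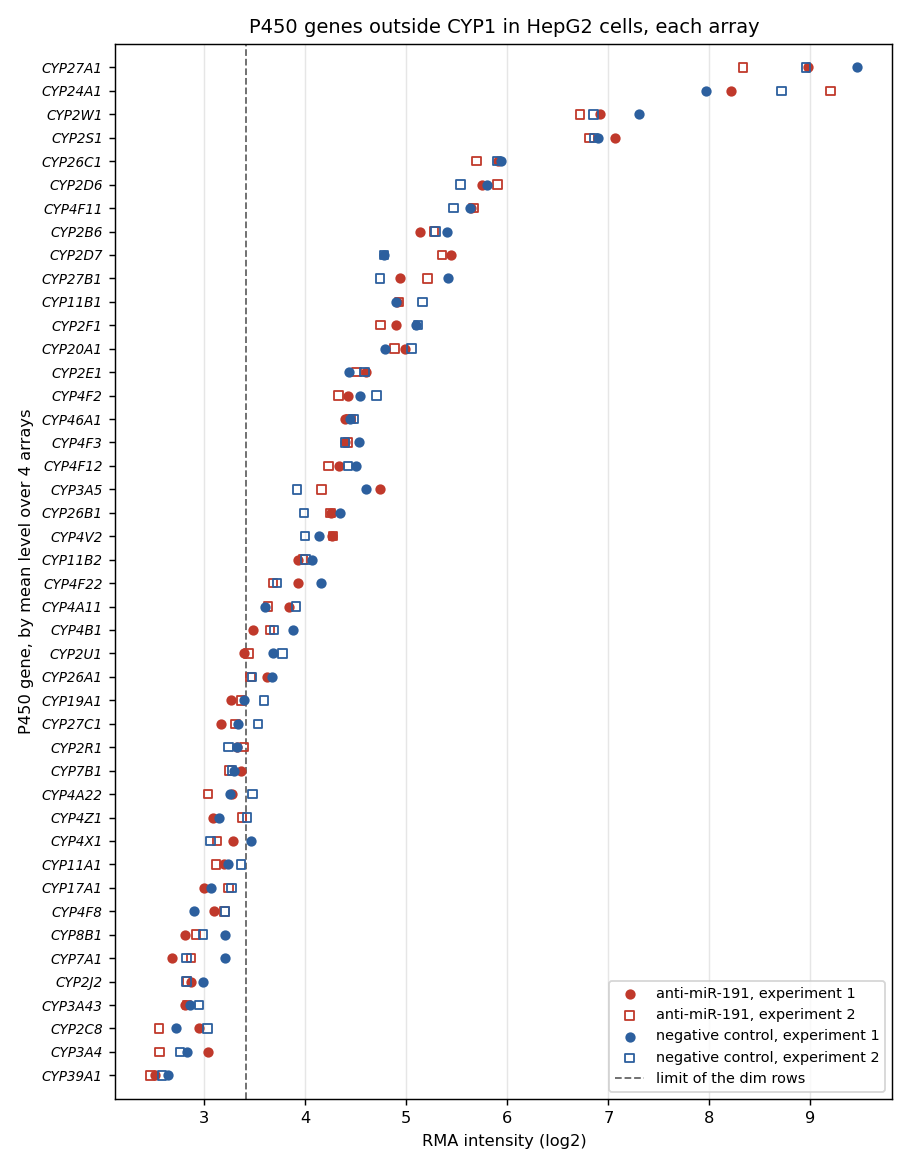
RMA intensity (log2, horizontal axis) of the 44 P450 genes on each of the 4 arrays, with genes ordered by mean level and the limit of the dim rows (3.41) dashed. Red symbols are anti-miR-191 arrays and blue symbols control arrays, filled circles experiment 1 and open squares experiment 2. CYP27A1 and CYP24A1 read above 7.9 on every array, and 17 genes have a mean level left of the dashed line.

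The 17 dim genes came from all functional groups of the set. Of 10 genes grouped under drug and xenobiotic metabolism, the pseudogene CYP2D7 among them, 7 read above the limit, and CYP3A4, CYP3A43 and CYP2C8 did not. Of 12 genes acting mainly on fatty acids, 9 were above it, and CYP2J2, CYP4A22 and CYP4F8 were not. Of 6 genes of cholesterol and bile acid metabolism, only CYP27A1 and the brain cholesterol hydroxylase gene CYP46A1 were above it. CYP7A1, CYP7B1, CYP8B1 and CYP39A1 lay between 2.55 and 3.29. Of 6 genes grouped under vitamin D and retinoid metabolism, 5 were above it and the vitamin D 25-hydroxylase gene CYP2R1 (3.32) was not. Of 5 steroid hormone genes, CYP11B1 and CYP11B2 were above it, while CYP11A1, CYP17A1 and CYP19A1 were not. The remaining 5 genes, placed in none of these groups, had CYP2W1 and CYP20A1 above it and CYP27C1, CYP4X1 and CYP4Z1 below.

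Some genes central to adult liver metabolism were among the dimmest, and 3 are given for that role, chosen after their values were seen. CYP3A4, which oxidises a large share of drugs in adult liver, read 3.03 and 2.56 after anti-miR-191, against 2.82 and 2.76 in controls of experiments 1 and 2. CYP2C8, another drug hydroxylase, read 2.95 and 2.55 after anti-miR-191, against 2.72 and 3.03 in controls. CYP7A1, the rate-limiting enzyme of the classic bile acid pathway, read 2.68 and 2.87 after anti-miR-191, against 3.21 and 2.82 in controls. The arrays of both groups overlapped for these genes, and all their readings lay under 3.41. Over the 17 dim genes the mean changes ran from -0.24 to 0.10, and no reading of a change is made from them.

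Start regions are shown for the gene that fell, for another gene with a mean level above 6, for a liver gene near the median of all rows and for a liver gene in the dim rows. The 150 bases before the annotated start are given 5′ to 3′ from RefSeq on GRCh38.p14. Capitals mark the letters of 3 motifs searched on both strands. These are the TATA box, spelled TATAAA, the CCAAT box, spelled as named, and the GC box, spelled GGGCGG. No match overlaps another. The table held a start region for 30 of the 44 genes, and 4 are shown. CYP27A1 lies at chr2:218781997-218782146 on the plus strand, CYP2S1 at chr19:41193069-41193218 on the plus strand, CYP2E1 at chr10:133527213-133527362 on the plus strand and CYP3A4 at chr7:99784185-99784334 on the minus strand.
CYP27A1: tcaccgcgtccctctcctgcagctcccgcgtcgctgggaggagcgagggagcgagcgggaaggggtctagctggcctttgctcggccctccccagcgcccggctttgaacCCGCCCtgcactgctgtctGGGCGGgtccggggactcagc
CYP2S1: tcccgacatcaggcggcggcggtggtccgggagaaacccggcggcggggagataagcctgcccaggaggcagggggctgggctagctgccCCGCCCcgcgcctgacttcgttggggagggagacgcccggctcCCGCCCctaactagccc
CYP2E1: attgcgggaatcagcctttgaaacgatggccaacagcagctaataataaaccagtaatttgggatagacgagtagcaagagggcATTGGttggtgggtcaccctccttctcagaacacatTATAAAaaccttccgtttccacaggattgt
CYP3A4: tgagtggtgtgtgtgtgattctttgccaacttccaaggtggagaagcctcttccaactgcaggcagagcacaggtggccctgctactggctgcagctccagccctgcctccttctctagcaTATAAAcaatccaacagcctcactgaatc

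The first pair of sequences has GC boxes and no TATA box, beginning 40 and 21 bases before the start of CYP27A1 and 60 and 17 bases before that of CYP2S1. CYP2E1 and CYP3A4 have a TATA box, beginning 30 and 29 bases before the start, and CYP2E1 has a CCAAT box beginning 66 bases before it. Over the full 250 bases before the start, TATAAA was present in 10 of the 30 P450 genes (33.3%) and in 13.0% of all 27305 genes in the table. It was present in 6 of 17 P450 genes above the dim rows (CYP26A1, CYP26B1, CYP26C1, CYP2B6, CYP2E1 and CYP4B1) and in 4 of 13 in the dim rows (CYP19A1, CYP2C8, CYP3A4 and CYP4X1). GGGCGG was present in 13 of 30 (43.3%) against 46.2% of all genes, and CCAAT in 15 of 30 (50%) against 37.0%. The nuclear receptor half-site AGGTCA was present in 10 of 30 (33.3%) against 14.6%. These matches describe letters in a window and are not shown to be sites.

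Between treatments, 2 of the 27 P450 genes tested passed. CYP27A1 fell and CYP2D7 rose in limma's fit with the experiment as a block, at an adjusted p under 0.05 over all 14147 genes tested. This is 7.41% of the P450 genes tested, against 13.9% of all genes tested. By direction, 10.1% of all genes rose (1428) and 3.77% fell (533), while quantile normalization gave 896 and 523. In a single simulated data set of this design, the fit with the block called more unchanged genes than its threshold allows. The simulated noise did not follow the spread that limma assumes, and whether the excess holds for the real arrays was not tested. Without the block, where 3.91% of all genes were called, no P450 gene passed. Of the 27, 1 (CYP2D7) had an unadjusted p under 0.05 there, against 3048 of all 14147 genes. No P450 gene changed by at least 1.5-fold the same way in both experiments, against 8.67% of all genes tested. The median absolute change was 0.13 over the 27 P450 genes and 0.20 over all genes tested. The widest change among the 27 was the 1.54-fold rise of CYP2D7. Outside the set, CYP1A1 read 10.1 after anti-miR-191, against 6.70 in controls, a 10.6-fold rise and the largest of all genes tested. Of the other CYP1 genes, CYP1A2 had a change of -0.16 (limma's adjusted p = 0.573 with the block) and CYP1B1 was in the dim rows.

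**Figure D2:**
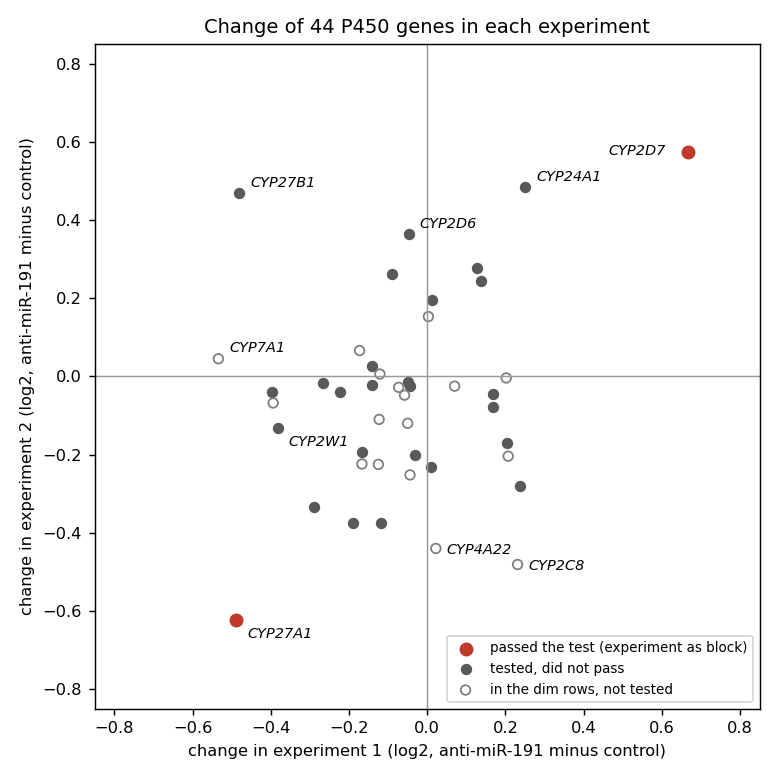
Change of each of the 44 P450 genes (log2, anti-miR-191 minus control) in experiment 1 on the horizontal and in experiment 2 on the vertical axis. Filled points were tested, red ones passed with the experiment as a block, and open points lie in the dim rows. CYP2D7 is the upper right red point (0.67 and 0.58) and CYP27A1 the lower left one (-0.49 and -0.62), while most genes lie close to the centre.

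CYP27A1 encodes the mitochondrial sterol 27-hydroxylase, which starts the alternative bile acid pathway. It read 8.98 and 8.33 after anti-miR-191, against 9.46 and 8.96 in controls of experiments 1 and 2. Within each experiment the anti-miR-191 array was the lower one, but over both experiments the groups overlapped slightly. The mean was 8.65 ± 0.46 after anti-miR-191, against 9.21 ± 0.36 in controls (SD, n = 2 each). CYP27A1 fell by 0.56 ± 0.15 (SE) on the log2 scale, with limma's adjusted p = 0.0437 with the experiment as a block. It did not pass without the block (adjusted p = 0.304) or, with the block, after quantile normalization of the arrays (adjusted p = 0.0569). With 1 array left out and no block, the change was -0.88 without anti-miR-191 array 1, -0.23 without anti-miR-191 array 2, -0.30 without control array 1 and -0.81 without control array 2. Those fits do not pair the arrays, so part of the gap between experiments enters these values. Readings in experiment 2 were below those of experiment 1 by 0.64 after anti-miR-191 and by 0.51 in controls, gaps about as wide as the change. TTR, a hepatocyte marker that carries thyroid hormone and retinol, read 10.0 and 9.70 after anti-miR-191, against 11.0 and 10.8 in controls. Of 8 hepatocyte markers, 0 rose and 1 fell (TTR, by 1.04 ± 0.14), against 10.1% and 3.77% of all genes tested. All 8 mean changes were negative, against 6872 of all 14147 genes. The changes of the 8 markers had a median of 0.02 in experiment 1 and of -0.91 in experiment 2. Their part in the fall of CYP27A1 was not tested.

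CYP2D7 is annotated in RefSeq as a transcribed pseudogene next to its near-identical functional copy CYP2D6, which clears many antidepressants and opioids. It read 5.44 and 5.35 after anti-miR-191, against 4.78 and 4.78 in controls. Both anti-miR-191 arrays were above both control arrays, with a mean of 5.40 ± 0.065 after anti-miR-191, against 4.78 ± 0.001 in controls (SD, n = 2 each). CYP2D7 rose 1.54-fold (0.62 ± 0.15 on the log2 scale), with limma's adjusted p = 0.0287 with the block. The rise did not pass without the block (adjusted p = 0.0697) or, with the block, after quantile normalization (adjusted p = 0.0531). CYP2D6 read 5.75 and 5.90 after anti-miR-191, against 5.80 and 5.54 in controls, a change of 0.16 ± 0.16 with an adjusted p of 0.587, and its groups overlapped. Transcripts of near-identical copies can share probes, so the CYP2D7 signal is not shown to come from CYP2D7 alone.

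**Figure D3:**
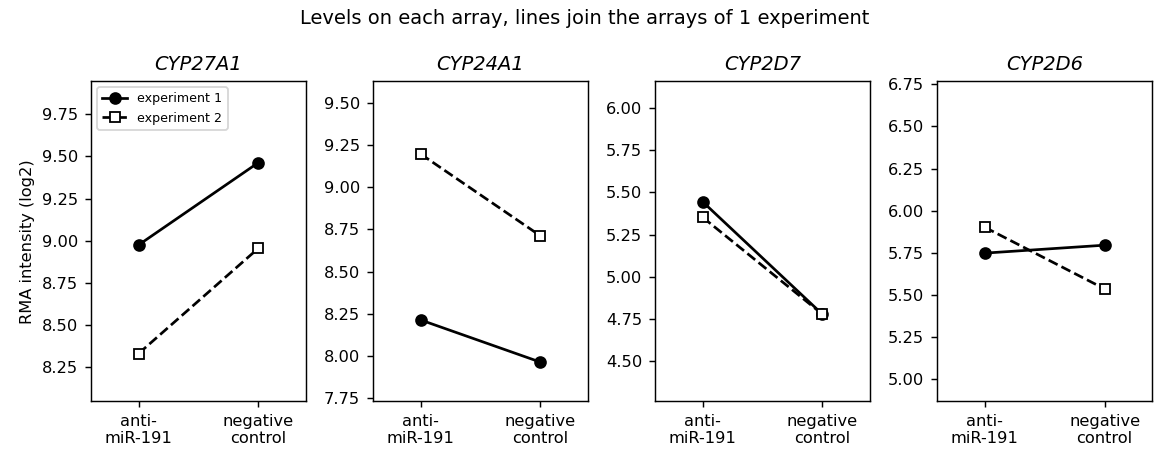
RMA intensity (log2) of CYP27A1, CYP24A1, CYP2D7 and CYP2D6 on each array, with anti-miR-191 on the left and control on the right of each panel and lines joining the arrays of 1 experiment. The panels have different ranges of the same width. CYP27A1 is lower after anti-miR-191 in both experiments and CYP2D7 higher, while the lines of CYP24A1 are set apart by experiment and those of CYP2D6 cross.

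None of the 5 vitamin D and retinoid genes tested passed, against 13.9% of all genes tested. CYP24A1, the mitochondrial 24-hydroxylase that degrades vitamin D hormone, read 8.21 and 9.20 after anti-miR-191, against 7.96 and 8.71 in controls. The anti-miR-191 array was higher in both experiments (by 0.25 and 0.49), with a mean change of 0.37 ± 0.15 and an adjusted p of 0.157. With 1 array left out and no block, the CYP24A1 change was 0.86 without anti-miR-191 array 1 and -0.12 without anti-miR-191 array 2. It was -0.01 without control array 1 and 0.74 without control array 2. Those fits do not pair the arrays, so part of the gap between experiments enters these values, and their sign does not test the change within experiments. That gap was wider than the change, with experiment 2 higher by 0.98 after anti-miR-191 and by 0.75 in controls. CYP24A1 had an unadjusted p of 0.041, which makes it the third P450 gene under 0.05 before adjustment. Of all 14147 genes, 3975 were under 0.05 in that fit. CYP27B1, the 1-alpha-hydroxylase that makes vitamin D hormone, read 4.93 and 5.21 after anti-miR-191, against 5.41 and 4.74 in controls. Its changes were -0.48 and 0.47 in experiments 1 and 2, opposite in sign and alike in size. CYP26C1, a retinoic acid hydroxylase, read 5.91 and 5.70 after anti-miR-191, against 5.94 and 5.90 in controls, a change of -0.12 ± 0.15. CYP26A1 and CYP26B1, which degrade retinoic acid too, had mean changes of -0.03 and 0.09.

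Among the drug-metabolising genes, those above the dim rows other than CYP2D7 had mean changes between -0.28 and 0.19. CYP2S1, an enzyme found mainly outside the liver, read 7.07 and 6.81 after anti-miR-191, against 6.90 and 6.86 in controls, a change of 0.06 ± 0.15. CYP2B6, a target of the receptors CAR and PXR, read 5.14 and 5.27 after anti-miR-191, against 5.40 and 5.29 in controls. CYP2E1, which oxidises ethanol, read 4.60 and 4.50 after anti-miR-191, against 4.43 and 4.58 in controls. The arrays of the groups overlapped for CYP2S1 and CYP2E1, and for CYP2B6 the 2 anti-miR-191 arrays were below both controls by as little as 0.02 within experiment 2. CYP2F1, known mainly from lung, read 4.90 and 4.74 after anti-miR-191, against 5.09 and 5.12 in controls, a change of -0.28 ± 0.15 with an adjusted p of 0.266. CYP3A5, a relative of CYP3A4, read 4.74 and 4.16 after anti-miR-191, against 4.60 and 3.92 in controls. As with CYP27A1, the CYP3A5 readings were set apart by experiment, lower in experiment 2 by 0.57 after anti-miR-191 and by 0.68 in controls.

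The 9 fatty acid genes tested had mean changes between -0.31 and 0.20. Of these changes, 7 were negative and 2 positive, while 6872 of all 14147 genes had a negative change. None of the 9 passed the test, against 13.9% of all genes tested. The lowest change was that of CYP2U1, a long-chain fatty acid hydroxylase close to the limit of the dim rows, which read 3.39 and 3.44 after anti-miR-191, against 3.68 and 3.77 in controls. Its change was -0.31 ± 0.14 with an adjusted p of 0.208, and its groups did not overlap. CYP4F11, a fatty acid and vitamin K hydroxylase, read 5.64 and 5.66 after anti-miR-191, against 5.63 and 5.47 in controls, a change of 0.10 ± 0.15. CYP4F2, which hydroxylates arachidonic acid and vitamin K, and its relative CYP4F12 had changes of -0.25 and -0.18, with both anti-miR-191 arrays below both controls. CYP4F3 and CYP4F22, an enzyme of skin ceramide synthesis, had changes of -0.06 and -0.13 and overlapping groups. The CYP4F genes are closely related in sequence and could share probes. CYP4V2, linked to a retinal dystrophy, had the highest change of the group at 0.20, CYP4B1 had -0.22 and the lauric acid hydroxylase gene CYP4A11 had -0.02.

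The steroid and less characterised genes showed no change that passed, while 13.9% of all genes tested did. CYP11B1, the adrenal enzyme that completes cortisol synthesis, read 4.91 and 4.93 after anti-miR-191, against 4.90 and 5.16 in controls. CYP11B2, its close copy that makes aldosterone, had a change of -0.08. CYP2W1, described in fetal gut and in tumours, read 6.92 and 6.72 after anti-miR-191, against 7.30 and 6.85 in controls, a change of -0.26 ± 0.15 with an adjusted p of 0.323. CYP20A1, an orphan enzyme, read 4.99 and 4.88 after anti-miR-191, against 4.78 and 5.05 in controls. The groups overlapped for CYP11B1, CYP2W1 and CYP20A1. CYP46A1 had a change of -0.04.

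Over all 27 genes tested, 10 changes were positive and 17 negative, with a median of -0.04 (0.01 over all genes tested). The sign was the same in both experiments for 18 of the 27 genes, 5 higher and 13 lower, and for 9826 of all 14147, 5162 higher and 4664 lower. The anti-miR-191 arrays were fully apart from the control arrays for 10 of the 27 genes (37.0%), 3 higher and 7 lower, while 53.2% of all genes tested had groups that did not overlap. Besides the 2 genes that passed, the adjusted p of the other 25 lay between 0.157 and 0.991, which does not show that they did not differ.

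Genes listed as partners of P450 enzymes were read from the same fit. Of 8 electron transfer partners tested, limma called 0 higher and 0 lower with the block, against 13.9% of all genes. In this list 1 gene (FDX2) had an unadjusted p under 0.05, against 3975 of all 14147 genes, and the median change was -0.04. POR, the reductase that supplies electrons to all microsomal P450 enzymes, read 9.56 and 9.67 after anti-miR-191, against 9.68 and 9.18 in controls, changes of -0.12 and 0.49. CYB5B, the cytochrome b5 of the outer mitochondrial membrane, read 10.1 and 10.2 after anti-miR-191, against 9.86 and 9.94 in controls, with an adjusted p of 0.326. CYB5A, its microsomal relative, read 9.41 and 9.64 after anti-miR-191, against 9.83 and 9.88 in controls, with an adjusted p of 0.201. The groups did not overlap for either cytochrome, higher for CYB5B and lower for CYB5A, and overlapped for POR. FDX2, a mitochondrial ferredoxin, had a change of -0.46 ± 0.14 (adjusted p = 0.0785). FDX1, the other ferredoxin of the list, had a change of -0.02 ± 0.14 (adjusted p = 0.943) and overlapping groups. Whether either ferredoxin serves the P450 enzymes in these cells was not tested.

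Of 14 genes of heme synthesis and breakdown, 0 rose and 1 fell, against 13.9% of all genes called. An unadjusted p under 0.05 was found for 6 of them, against 3975 of all 14147 genes. The mean changes were positive for 8 and negative for 6, with a median of 0.008. The gene that fell was BLVRB, a biliverdin reductase, which read 6.54 and 6.49 after anti-miR-191, against 7.23 and 7.26 in controls. It fell by 0.73 ± 0.14 (adjusted p = 0.0172 with the block and 0.0486 without). UROD, a decarboxylase of heme synthesis, read 9.51 and 9.50 after anti-miR-191, against 10.1 and 9.81 in controls, and did not pass (adjusted p = 0.104). HMOX1, the inducible heme oxygenase, read 8.69 and 9.25 after anti-miR-191, against 8.64 and 8.97 in controls, with overlapping groups (adjusted p = 0.537).

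Of 20 regulators of P450 genes tested, 3 rose and 0 fell, with a median change of 0.12. Over all genes 10.1% rose and 3.77% fell. Without the block the counts were 3 and 0 as well, against 3.91% of all genes called. CEBPB, a transcription factor of the acute phase and of liver gene control, read 9.40 and 9.78 after anti-miR-191, against 8.20 and 7.69 in controls, and rose 3.12-fold (adjusted p = 0.00496 with the block and 0.0278 without). NR3C1, the glucocorticoid receptor, read 5.08 and 5.54 after anti-miR-191, against 4.26 and 4.36 in controls, a 2.00-fold rise (adjusted p = 0.00841 with and 0.0478 without). NFIL3, a repressor tied to the circadian clock, read 6.44 and 6.47 after anti-miR-191, against 5.64 and 5.74 in controls, and rose 1.69-fold (adjusted p = 0.015 with and 0.047 without). The brightest regulators that did not pass were NR0B2 (SHP, a repressor of bile acid synthesis genes), with changes of -0.13 and -0.69, and CEBPA, with 0.15 and 0.69. NR1I3 (CAR) and NR5A2 were in the dim rows.

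**Figure D4:**
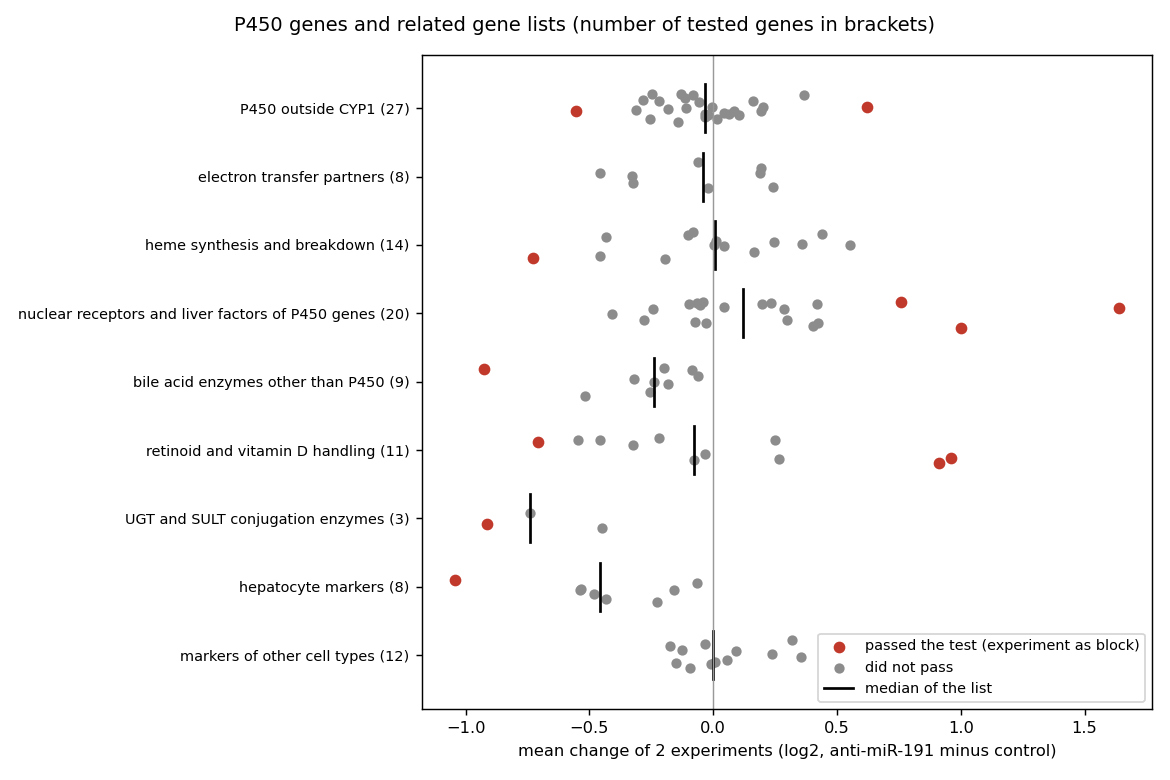
Mean change over both experiments (log2, anti-miR-191 minus control) of every tested gene in the P450 set and in the related lists, 1 point a gene, with a black bar at each median. Red points passed with the experiment as a block. The P450 points, apart from CYP27A1 and CYP2D7, lie between -0.31 and 0.37, and 3 regulators lie at or above 0.76.

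Of 9 bile acid genes other than P450 genes, 0 rose and 1 fell with the block, and without it limma called 0, with 2 at an unadjusted p under 0.05. Over all genes 13.9% were called with the block and 3.91% without, and 3048 of 14147 had an unadjusted p under 0.05 without it. All 9 mean changes were negative, with a median of -0.24, against 6872 of all 14147 genes. The mean changes of all 8 hepatocyte markers were negative too, with a median of -0.46. The 2 experiments went opposite ways for 3 of the 9 genes and for 5 of the 8 markers. The part of the hepatocyte markers in this was not tested. SLC51B, a subunit of the basolateral bile acid exporter, read 6.44 and 5.84 after anti-miR-191, against 7.03 and 7.11 in controls, and fell by 0.93 ± 0.19 (adjusted p = 0.0191 with the block and 0.0743 without). FGFR4, the receptor through which FGF19 represses bile acid synthesis, had a change of -0.19 in the first experiment and 0.02 in the second, and HSD17B4, a peroxisomal enzyme of side chain shortening, had 0.23 and -0.59.

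Of 11 genes of retinoid and vitamin D handling, 2 rose and 1 fell with the block, with a median of -0.08, against 10.1% and 3.77% of all genes. Without the block, limma called 0 of the 11, against 3.91% of all genes. An unadjusted p under 0.05 was found there for 4, against 3048 of all 14147 genes. CRABP2, which carries retinoic acid to its receptor, read 5.08 and 5.44 after anti-miR-191, against 4.45 and 4.15 in controls, and rose 1.94-fold (adjusted p = 0.0163 with the block and 0.0531 without). RDH10, which oxidises retinol, read 8.22 and 8.76 after anti-miR-191, against 7.22 and 7.95 in controls. It rose 1.88-fold (adjusted p = 0.00939 with the block and 0.143 without). In unpaired fits, which part of the gap between experiments enters, its change of 0.91 was 0.55 without control array 1 and 1.28 without control array 2. DHCR7, which uses up the precursor shared by vitamin D and cholesterol, read 9.34 and 8.74 after anti-miR-191, against 10.0 and 9.50 in controls. It fell by 0.71 ± 0.15 (adjusted p = 0.019 with the block and 0.193 without). In unpaired fits of the same kind, the DHCR7 change was -1.01 without anti-miR-191 array 1 and -0.40 without anti-miR-191 array 2. It was -0.46 without control array 1 and -0.96 without control array 2. RBP4, the carrier of retinol in blood, had changes of -0.46 and -0.46 in the 2 experiments and DHRS3, a retinal reductase, 0.15 and 0.38, and neither passed.

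Of 3 conjugating enzymes tested out of 9 measured, 0 rose and 1 fell with the block, and without it limma called 0, with 2 at an unadjusted p under 0.05. Over all genes 13.9% were called with the block and 3.91% without, and 3048 of 14147 had an unadjusted p under 0.05 without it. The sulfotransferase gene SULT1A1 read 6.02 and 5.58 after anti-miR-191, against 6.73 and 6.70 in controls, and fell by 0.92 ± 0.16 (adjusted p = 0.0121 with the block and 0.0554 without). Close copies of SULT1A1 can share its probes. SULT2A1, a steroid sulfotransferase, had changes of -0.19 and -1.30 and UGT2B10, a glucuronosyltransferase, 0.34 and -1.23, both far lower in experiment 2. Of 12 markers of other cell types tested, limma called 0 higher and 0 lower with the block, against 13.9% of all genes. Among these markers 0 had an unadjusted p under 0.05 with the block, against 3975 of all 14147 genes. Their changes were positive for 6 and negative for 6.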

How the data were processed

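HepG2 total RNA was hybridised to 4 Affymetrix arrays of 1 colour. Per the submitters' processing notes, the authors deposited log2 intensity values from the RMA method of Expression Console. This method removes background, makes arrays comparable and combines probes, which compresses weak signals. Its version is not given in the sources used here, nor is the set of arrays it was run on, and the log base was taken from the values. Intensities have no counting depth, and the number of arrays limits the precision. Array medians lay between 4.37 and 4.43.

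GEO's platform annotation gave 1 symbol for 19460 of 33297 rows. The brightest row stood for a gene, and genes under 3.41 were left out of the test, which left 14147. The main test was limma 3.58.1 in R 4.3.3 (lmFit, eBayes, two-sided) with the experiment as a block, 1 residual degree of freedom and 6.60 prior ones, and Benjamini-Hochberg adjustment over all genes tested at 0.05. The duplicates come from separate studies, per the series text, and both groups carry the numbers 1 and 2 in the titles. Across genes, arrays with the same number deviated together (r = 0.335, a single value with 2 arrays per group). The fit without the block has 2 residual degrees of freedom. Lists are described by counts and medians. Values are given for P450 genes that passed and the brightest others and, of each related list of P450 partners, regulators and pathways, for genes that passed and up to 2 bright others. POR, FDX1, FDX2, NR1I3, NR5A2 and the dimmer P450 genes named with a value were added after their values were seen. The members and lists were chosen with earlier results of these data known. Start regions were searched as exact letters. In a single simulated data set with known changes, the fit with the block recovered the larger changes but called more unchanged genes than its threshold allows, which the fit without the block did not. Its noise mixed shuffled residual spreads of these data with their mean and was not drawn from limma's prior. Whether the excess holds for the real arrays was not tested. Figures were drawn with matplotlib 3.10.9.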

Additional observations from a re-analysis of the deposited data

How the results depend on the processing

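The number of P450 genes called was 2 with no filter, with rows under the median left out, with median centring, with cyclic loess, with an intensity trend and with the mean of rows. It was 0 without the block (replicate numbers not paired), 0 after quantile normalization, 1 at a change of at least 1.5-fold (CYP2D7) and 0 at an adjusted p under 0.01. In the settings with 0, 1 P450 gene (without the block) and 3 (the others) of 27 had an unadjusted p under 0.05. Over all genes, 3048 of 14147 did so without the block and 3783 of 14142 after quantile normalization. With the threshold at an adjusted p of 0.01 the count was 3975 of 14147. Over all genes, limma called 1961 in the main setting (1428 higher), 1419 after quantile normalization (896 higher), 553 without the block and 540 at an adjusted p under 0.01. At a change of at least 1.5-fold it called 1780. With no filter it called 2122 of 18417 genes, and with rows under the median left out 1747 of 10911. Median centring gave 1752, cyclic loess 1799 and an intensity trend 1974 of 14147, and the mean of rows 1945 of 14126. Leaving out single arrays, run without the block, gave 0 P450 genes in each case (1 to 3 at an unadjusted p under 0.05) and between 0 and 339 genes over all, with 1663 to 3178 at an unadjusted p under 0.05. Those fits hold 3 arrays, and the lone array of a group is assumed to vary like the others. The arrays are not paired there, so part of the gap between experiments enters each change. In these fits the change of CYP27A1 ran from -0.88 to -0.23 and that of CYP2D7 from 0.58 to 0.67. With the limit at the median of rows, 17 P450 genes were above it in place of 27, and with controls alone 28. Without the block, CRABP2, DHCR7, RDH10, SLC51B and SULT1A1 also lost their call. The cause of these differences was not tested.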
